A study of Mus musculus with 7 samples.

Results

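The steroidogenic genes of the mouse testis were followed by RNA-seq of whole testis in males with and without *Rlim*. The 10 genes were *Star*, *Cyp11a1*, *Cyp17a1*, *Hsd3b1*, *Hsd3b6*, *Hsd17b3*, *Fdx1*, *Fdxr*, *Scarb1* and *Tspo*, chosen by name from the 19719 genes of the deposited testis table, and all 10 were listed in it. Testes came from C57BL/6 males at 8 weeks of age. The controls were 3 fl/Y samples (labelled WT) from males that carry an *Rlim* allele flanked by loxP sites on their X chromosome, and the knockouts were 4 cKO/Y Sox2-Cre samples (labelled Rlim-KO, hereafter cKO/Y), from males in which the same allele is deleted by Cre recombinase driven by Sox2. Sox2-Cre acts in the epiblast, so *Rlim* was deleted in somatic cells and in germ cells alike, and a difference cannot be assigned to 1 cell type. The labels gave 2 batches, of which batch 1 comprised 1 control (fl/Y replicate 3) with cKO/Y replicates 3 and 4, and the remaining 4 libraries made up batch 2.

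Leydig cells lie between the seminiferous tubules and make testosterone from cholesterol. The cholesterol is taken up from lipoproteins, carried into the mitochondrion, cut there to pregnenolone, and converted to androgens by dehydrogenases and a lyase in the endoplasmic reticulum. Luteinizing hormone drives this chain through its receptor and cyclic AMP, and the nuclear receptor encoded by *Nr5a1* is a main activator of the genes. *Star*, *Cyp11a1*, *Cyp17a1*, *Hsd3b1*, *Hsd3b6* and *Hsd17b3* are, within the testis, largely Leydig cell genes, while *Fdx1*, *Fdxr*, *Scarb1* and *Tspo* are also used by other cells. In RNA of a whole organ, fewer Leydig cells and less RNA per Leydig cell cannot be told apart.

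By their coordinates in the table (GRCm38), only *Hsd3b1* (chr3:98852194-98859794) and *Hsd3b6* (chr3:98805504-98814443) lie side by side, both on the minus strand. The others are *Star* (chr8:25806555-25815982), *Cyp11a1* (chr9:58006411-58027023), *Cyp17a1* (chr19:46667165-46672974), *Hsd17b3* (chr13:64058266-64089230), *Fdx1* (chr9:51943306-51963556), *Fdxr* (chr11:115268024-115277050), *Scarb1* (chr5:125277087-125341094) and *Tspo* (chr15:83563592-83574203). *Hsd3b1* and *Hsd3b6* are shown as sequence because their log2 fold changes had opposite signs, and short reads must tell them apart. Their coding sequences are each 1122 bases long and differ at 112 bases (90.02% identical). The 90 bases of exon 2 with the most differences (18, in capitals), read from the GRCm38 genome on the minus strand at chr3:98857822-98857911 for *Hsd3b1* and at chr3:98810904-98810993 for *Hsd3b6*, are these.
Hsd3b1: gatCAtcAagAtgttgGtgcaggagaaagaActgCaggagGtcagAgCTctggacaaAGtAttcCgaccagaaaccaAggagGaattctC
Hsd3b6: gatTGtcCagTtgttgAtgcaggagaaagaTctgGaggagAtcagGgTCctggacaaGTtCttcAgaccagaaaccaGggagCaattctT

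Of all stretches of 35 coding bases, the length of 1 read, 91.6% differed between both genes, and the longest identical stretch was 72 bases. Over whole transcripts, 25.8% of the 35-base words of *Hsd3b6* and 11.0% of those of *Hsd3b1* occurred in another gene. For *Hsd3b6* these were mostly *Hsd3b2* and *Hsd3b3*, neither of which was among the listed genes. Among the other members the shared part reached 2.87% in *Cyp11a1* and 1.87% in *Tspo*, and was 0 in *Star*, *Cyp17a1*, *Hsd17b3* and *Fdxr*. The 110 bases before the start site (RefSeq, GRCm38.p6, minus strand) show how different the promoters of both neighbours are, with capitals for bases that were not matched in an alignment of 250 bases, of which 133 (53.2%) were identical. That of *Hsd3b1* lies at chr3:98859795-98859904 and that of *Hsd3b6* at chr3:98814444-98814553.
Hsd3b1: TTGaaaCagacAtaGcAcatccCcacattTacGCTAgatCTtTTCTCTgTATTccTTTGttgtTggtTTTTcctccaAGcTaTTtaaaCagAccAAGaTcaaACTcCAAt
Hsd3b6: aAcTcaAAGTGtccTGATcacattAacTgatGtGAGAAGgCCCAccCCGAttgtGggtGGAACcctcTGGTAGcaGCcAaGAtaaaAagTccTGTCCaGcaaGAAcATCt

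RefSeq promoters were matched for *Cyp11a1* (with a pair of start sites), *Fdx1*, *Fdxr*, *Hsd17b3*, *Hsd3b1* and *Hsd3b6*. None held the NR5A1-type letters CAAGGTCA, CAAGGCCA or AAGGTCA on either strand of the 250 bases before the start, or TATAAA on the strand of the gene. AAGGTCA is contained in CAAGGTCA. Of 32851 mouse promoters of that length, 1.33%, 1.99%, 4.08% and 7.59% held these letters, in the same order. Only these exact letters were searched, so sites that differ from them in any base would be missed. With shares this low, their absence from so few promoters does not show a lack of NR5A1 sites.

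Values are CPM, read counts relative to a scaled library size. Depth in the listed genes ran from 2822168 to 8633399 reads per library. The most abundant gene took 5.06% to 8.08% of reads in batch 1 and 16.8% to 19.3% in batch 2. *Rlim* was 99.5, 70.7 and 61.5 CPM in fl/Y replicates 1 to 3 and 32.6, 35.7, 21.7 and 20.7 CPM in cKO/Y replicates 1 to 4, with no overlap of the groups (log2 fold change -1.38, adjusted p = 0.0087, limma). Germ cell markers were abundant in all libraries, and *Prm1*, the sperm nuclear protein protamine, was 1401 to 2830 CPM. None of 5 epididymis markers was listed.

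Cholesterol reaches the Leydig cell and its mitochondria with the help of the products of *Scarb1* and *Star*. *Tspo* is described beside them, and whether its product is needed for this import was not tested. *Scarb1*, the receptor that takes up cholesterol from high-density lipoprotein, was 54.5, 61.4 and 69.2 CPM in fl/Y and 62.0, 53.0, 89.8 and 68.9 CPM in cKO/Y. The fl/Y values lay within the cKO/Y range, and the mean of fl/Y was 61.7 ± 7.38 CPM (SD, n = 3), beside 68.4 ± 15.6 CPM (SD, n = 4) for cKO/Y. Its log2 fold change on the log2(CPM + 0.5) scale, fitted with batch, was 0.07 (95% interval -0.26 to 0.40). *Tspo*, a cholesterol-binding protein of the outer mitochondrial membrane, was the least abundant member, with 5.20, 2.42 and 3.18 CPM in fl/Y and 4.34, 3.79, 3.46 and 3.11 CPM in cKO/Y. These values rest on 11 to 31 reads per library, and their 95% counting intervals overlapped throughout. With a log2 fold change of 0.11 (95% interval -0.53 to 0.75), no difference of *Tspo* was detectable at this depth.

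*Star*, which delivers cholesterol to the inner mitochondrial membrane and is the acutely regulated step, was 92.4, 69.3 and 82.0 CPM in fl/Y and 56.5, 67.6, 71.8 and 63.9 CPM in cKO/Y. Of the 4 cKO/Y libraries, 3 were below all fl/Y libraries, and replicate 3 was above fl/Y replicate 2. The mean of fl/Y was 81.2 ± 11.6 CPM (SD, n = 3), beside 64.9 ± 6.51 CPM (SD, n = 4) for cKO/Y. The log2 fold change was -0.33 (SE 0.15, 95% interval -0.66 to -0.0021, unadjusted p = 0.0487 and adjusted p = 1.00 by limma). Both batches gave a negative value, -0.27 in batch 1 and -0.37 in batch 2. When fl/Y replicate 1, the library with the most *Star*, was left out, the value was -0.22 (unadjusted p = 0.23, limma).

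**Figure D1:**
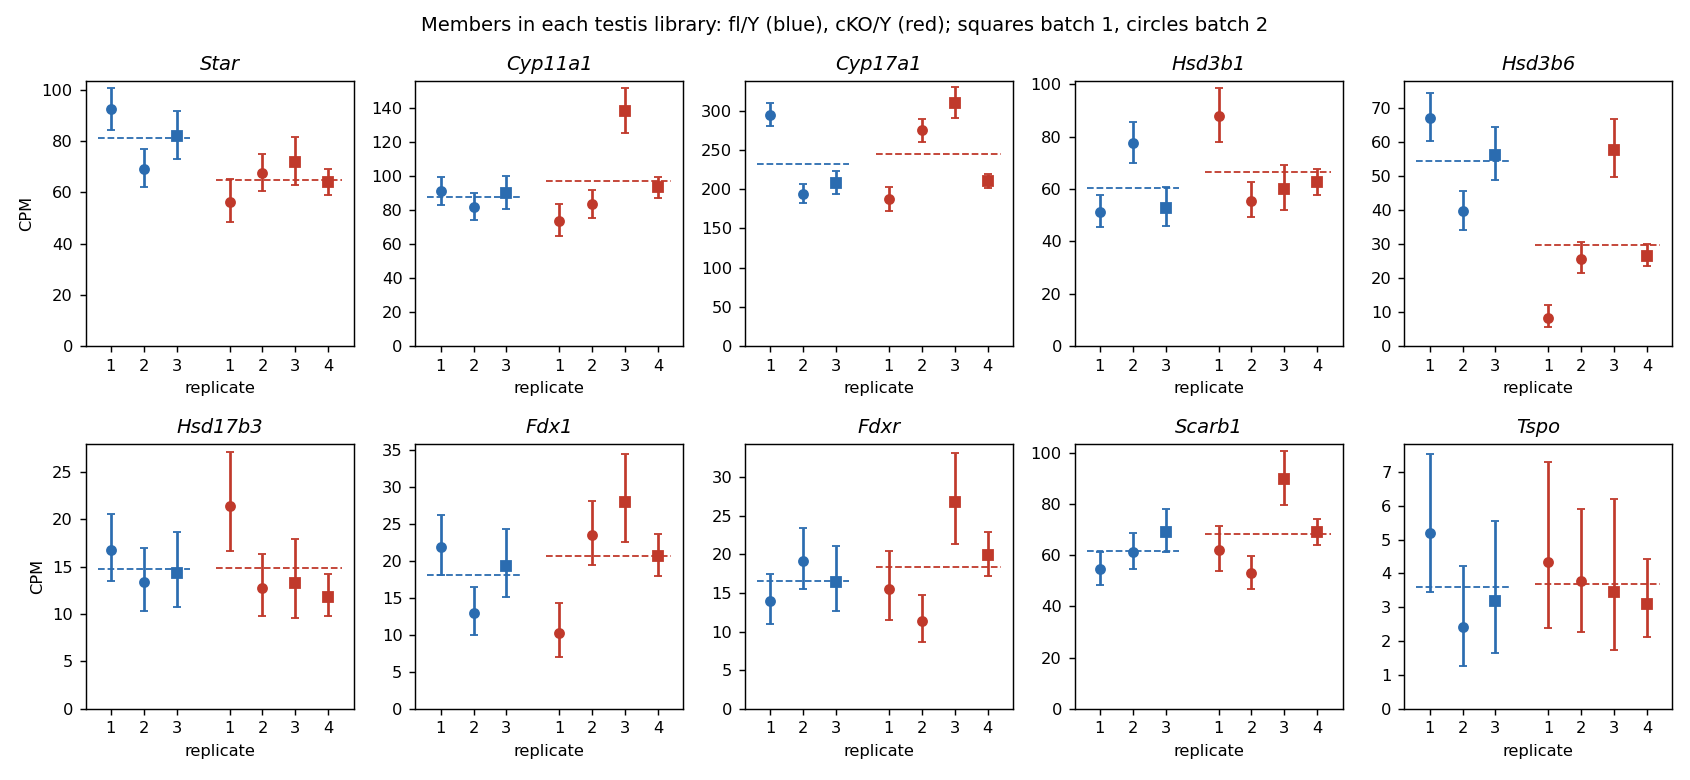
CPM (vertical axes, from 0) of each of the 10 genes in the 3 fl/Y (blue) and 4 cKO/Y (red) libraries, with 95% counting intervals as bars, group means as dashed lines, and squares for batch 1 and circles for batch 2. The groups overlap for every gene, and *Hsd3b6* in cKO/Y replicate 1 (8.37 CPM) stands below the other *Hsd3b6* values.

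*Cyp11a1* encodes the enzyme that cuts the side chain of cholesterol, and it receives electrons from ferredoxin (*Fdx1*), which is reduced by ferredoxin reductase (*Fdxr*). *Cyp11a1* was 91.1, 81.8 and 90.2 CPM in fl/Y and 73.8, 83.5, 138 and 93.4 CPM in cKO/Y. The fl/Y libraries lay close together (87.7 ± 5.13 CPM, SD, n = 3), and cKO/Y replicates 1 and 3 lay below and above them (97.3 ± 28.5 CPM, SD, n = 4). The log2 fold change was 0.05 (95% interval -0.31 to 0.41), with 0.33 within batch 1 and -0.14 within batch 2.

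*Fdx1* was 21.9, 12.9 and 19.4 CPM in fl/Y and 10.2, 23.5, 28.0 and 20.7 CPM in cKO/Y. The lowest and the highest value were both cKO/Y libraries, a 2.74-fold range, and the log2 fold change was 0.06 (95% interval -0.52 to 0.63). *Fdxr* was 13.9, 19.2 and 16.4 CPM in fl/Y and 15.5, 11.4, 26.8 and 19.9 CPM in cKO/Y. Again both ends of the range were cKO/Y libraries, and the log2 fold change was 0.02 (95% interval -0.46 to 0.49), with 0.48 within batch 1 and -0.29 within batch 2.

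*Hsd3b1* and *Hsd3b6* encode 3β-hydroxysteroid dehydrogenases, which turn pregnenolone into progesterone and act on the later intermediates too. *Hsd3b6* is known as the form of adult Leydig cells, whereas *Hsd3b1* is made in fetal and adult Leydig cells. *Hsd3b6* was 67.1, 39.6 and 56.2 CPM in fl/Y and 8.37, 25.7, 57.6 and 26.5 CPM in cKO/Y. In cKO/Y, replicates 1, 2 and 4 were below all fl/Y libraries, and replicate 3 lay inside the fl/Y range. The lowest value, in cKO/Y replicate 1, rests on 27 reads (95% counting interval 5.52 to 12.2 CPM), and its interval lies below those of the other 6 libraries. The mean of fl/Y was 54.3 ± 13.9 CPM (SD, n = 3), beside 29.6 ± 20.5 CPM (SD, n = 4) for cKO/Y.

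The log2 fold change of *Hsd3b6* was -1.27 (SE 0.36, 95% interval -2.04 to -0.50, unadjusted p = 0.0031 and adjusted p = 1.00 by limma), and its unadjusted p ranked 29 among 19400 genes. It was -0.52 within batch 1 and -1.77 within batch 2, and the difference (batch 2 minus batch 1) was -1.25 (unadjusted p = 0.10, adjusted p = 1.00, limma interaction term). Without cKO/Y replicate 1 the log2 fold change was -0.75 (unadjusted p = 0.0132, limma). *Hsd3b6* was also the most variable member, with an SD of 1.02 on the log2 scale over the 7 libraries and an 8.01-fold range. Of 11996 genes with a mean of at least 5 CPM, 0.417% had a larger SD. The other 9 members had SDs of 0.23 to 0.50, of which *Fdx1* had the largest.

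*Hsd3b1* was 51.3, 77.5 and 52.8 CPM in fl/Y and 87.8, 55.6, 60.1 and 62.5 CPM in cKO/Y. The log2 fold change was 0.17 (SE 0.19, 95% interval -0.22 to 0.57), and the groups overlapped. It was 0.017 without cKO/Y replicate 1, 0.033 without fl/Y replicate 1 and 0.34 without cKO/Y replicate 2. *Hsd3b1* was highest in cKO/Y replicate 1, where *Hsd3b6* was lowest, and lowest in fl/Y replicate 1, where *Hsd3b6* was highest. The ratio of *Hsd3b6* to *Hsd3b1* CPM was 1.31, 0.510 and 1.07 in fl/Y replicates 1 to 3 and 0.0954, 0.462, 0.958 and 0.424 in cKO/Y replicates 1 to 4. The genotype difference of the log2 ratio was -1.44, or -0.73 within batch 1 and -1.92 within batch 2, and -0.77 without cKO/Y replicate 1. It was given no test. The summed CPM of both genes was 118, 117 and 109 in fl/Y and 96.2, 81.3, 118 and 89.0 in cKO/Y. In cKO/Y, the sums of replicates 1, 2 and 4 were below those of all fl/Y libraries.

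**Figure D2:**
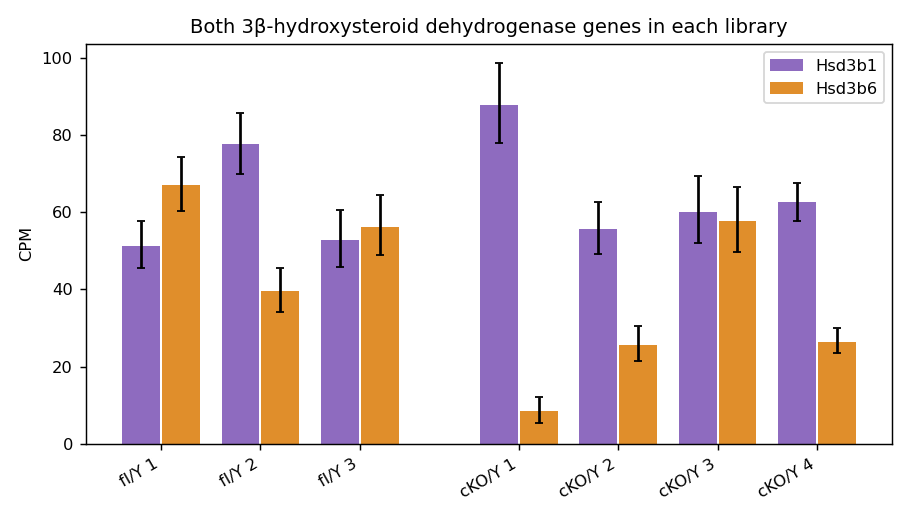
CPM of *Hsd3b1* (purple) and *Hsd3b6* (orange) as bars from 0 in each of the 7 libraries, with 95% counting intervals. The ratio of *Hsd3b6* to *Hsd3b1* spans 0.0954 in cKO/Y replicate 1 to 1.31 in fl/Y replicate 1.

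*Cyp17a1* encodes the 17α-hydroxylase and 17,20-lyase that gives androstenedione, and *Hsd17b3* the dehydrogenase that makes testosterone from it. *Cyp17a1* was 295, 194 and 208 CPM in fl/Y and 187, 275, 310 and 210 CPM in cKO/Y. Each group held low and high libraries, and the log2 fold change was 0.07 (95% interval -0.35 to 0.49). *Hsd17b3* was 16.7, 13.3 and 14.3 CPM in fl/Y and 21.4, 12.8, 13.2 and 11.8 CPM in cKO/Y. In cKO/Y, replicate 1 lay above the fl/Y range and replicates 2, 3 and 4 lay below it, and the log2 fold change was 0.01 (95% interval -0.45 to 0.47).

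Over the 10 genes, none passed an adjusted p of 0.05 in the comparison of cKO/Y with fl/Y by limma, edgeR's quasi-likelihood test or DESeq2. Over all 19400 genes tested, 0% were called higher and 0.00515% (1 gene, *Rlim*) lower. At an unadjusted p of 0.05, 2 members (*Star* and *Hsd3b6*) were lower and 0 were higher by limma, against 1.37% of all genes lower and 1.22% higher (2.58% in either direction). The groups overlapped for all 10 members, whereas they did not overlap for 1.59% of all genes with lower and 1.34% with higher values in cKO/Y. At an unadjusted p of 0.05, 2 members were lower by edgeR's quasi-likelihood test and 0 by DESeq2. Of all 19400 genes, 221 and 92 were lower by these tests. No member was higher by either. The median log2 fold change of the members was 0.05, beside -0.0055 over all genes, and 8 of 10 were above 0. These did not hold in batch 2 alone or without fl/Y replicate 3 (median -0.095, 3 of 10 above 0), without fl/Y replicate 2 (-0.065, 4 of 10) or without cKO/Y replicate 3 (-0.046, 3 of 10). The interaction of batch and genotype was called for 0 members and for 0.0103% of all genes (2 genes).

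**Figure D3:**
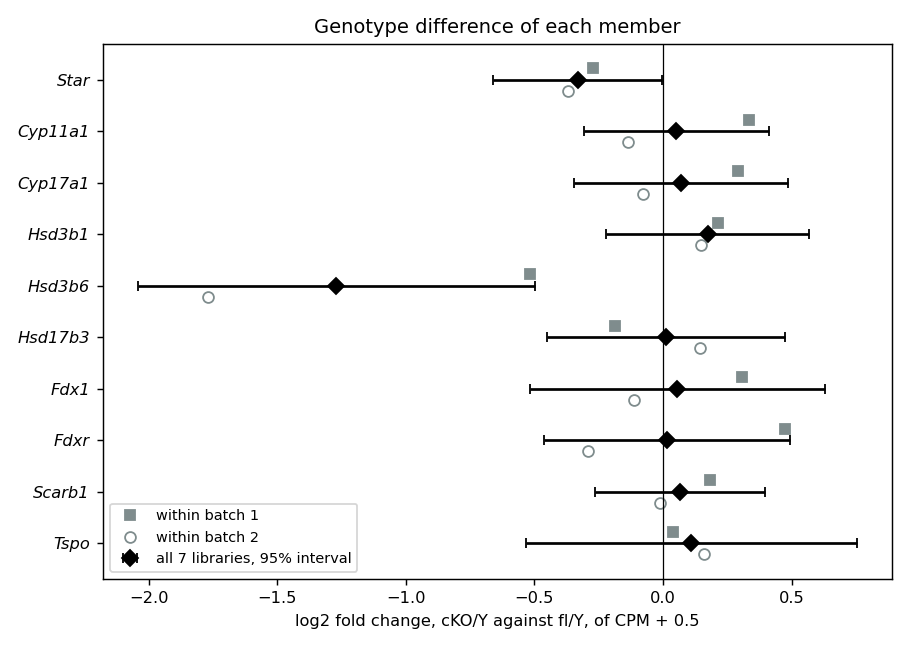
Log2 fold change of cKO/Y against fl/Y (horizontal axis, of CPM + 0.5) for each of the 10 genes, as diamonds with 95% intervals from the fit with batch, squares for batch 1 alone and open circles for batch 2 alone. The intervals of *Hsd3b6* and *Star* lie below 0, and *Cyp11a1*, *Cyp17a1*, *Hsd17b3*, *Fdx1*, *Fdxr* and *Scarb1* have opposite signs in the 2 batches.

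Levels were compared between genes as CPM per kilobase of exon, over the union of exons. *Cyp17a1* was highest (86.7 ± 18.6, SD over 7 libraries), followed by *Hsd3b1* (34.5 ± 7.38), *Hsd3b6* (22.3 ± 11.8), *Cyp11a1* (19.4 ± 4.37) and *Star* (17.5 ± 2.89). Then came *Hsd17b3* (10.6 ± 2.37), *Scarb1* (7.71 ± 1.46), *Fdx1* (6.29 ± 1.97), *Fdxr* (6.27 ± 1.78) and *Tspo* (3.47 ± 0.865). The order of the middle genes differed between the groups, since *Star* (19.7) was above *Cyp11a1* (18.2) in fl/Y and *Cyp11a1* (20.2) above *Hsd3b6* (16.4) in cKO/Y. Of neighbours in the order over all 7 libraries, only the ranges of *Cyp17a1* and *Hsd3b1* did not overlap. The length used matters, since with the longest transcript 7 members changed rank, and *Scarb1* moved from rank 7 to rank 5. The levels were not adjusted for 35-base words shared with other genes (25.8% in *Hsd3b6* and 11.0% in *Hsd3b1*), so the order of these neighbours is uncertain.

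**Figure D4:**
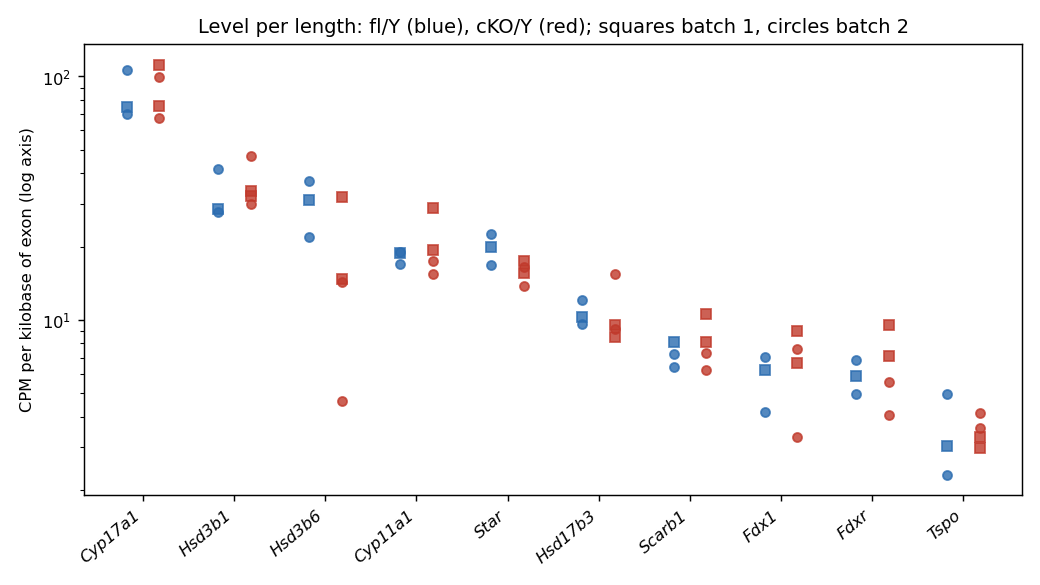
CPM per kilobase of exon (log axis) of the 10 genes in each fl/Y (blue) and cKO/Y (red) library, with squares for batch 1 and circles for batch 2. *Cyp17a1* lies above all other members in all 7 libraries, and *Hsd3b6* has the widest spread.

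Co-variation was measured as the correlation of log2(CPM + 0.5) over the 7 libraries for all 45 pairs, with two-sided exact permutation tests. No pair passed the Benjamini-Hochberg adjustment over the 45 pairs (smallest adjusted p = 0.156 for Pearson's r), and 9 pairs had an unadjusted p under 0.05. The signs were mixed, with 26 pairs positive and a median r of 0.13. The median was -0.13 among the 6 Leydig cell genes, of which 7 of 15 pairs were positive. With CPM from total reads, without the scaling of library sizes, the median over all pairs was 0.42 and that among the Leydig cell genes 0.097. Without cKO/Y replicate 3 the median over all pairs was -0.063, and without cKO/Y replicate 1 that among the Leydig cell genes was 0.32.

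The highest correlation was that of *Fdxr* with *Scarb1* (r = 0.91, exact permutation p = 0.0042, rho = 0.82, p = 0.034), which was 0.65 without cKO/Y replicates 2 and 3, the libraries farthest from the median of *Fdxr*. *Star* with *Hsd3b6* followed (r = 0.88, exact permutation p = 0.0069, rho = 0.93, p = 0.0067), and r was 0.81 both without the 2 farthest libraries and after batch and genotype were subtracted. *Cyp17a1* with *Fdx1* came next (r = 0.84, exact permutation p = 0.0107, rho = 0.96, p = 0.0028), with 0.80 without the 2 farthest libraries. After adjustment over the pairs, none of these 3 passed.

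The 3 lowest values all involved *Hsd3b1*, which was negative with 6 of 9 members. *Hsd3b1* with *Fdx1* had r = -0.85 (exact permutation p = 0.0258, rho = -0.57, p = 0.20). For this pair r was 0.36 without the 2 libraries farthest from the median of *Hsd3b1*, so its sign depended on the libraries kept. It was -0.67 without cKO/Y replicate 1, -0.94 without cKO/Y replicate 3, and -0.91 after batch and genotype were subtracted. *Star* with *Hsd3b1* had r = -0.79 (exact permutation p = 0.0367, rho = -0.82, p = 0.034), and -0.45 without the 2 farthest. *Hsd3b1* with its neighbour *Hsd3b6* had r = -0.74 (exact permutation p = 0.0486, rho = -0.68, p = 0.11), and -0.54 without the 2 farthest.

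Members that act next to each other in the pathway had both positive and negative correlations. *Cyp11a1* had r = 0.75 with its electron donor *Fdx1* (exact permutation p = 0.0494, rho = 0.75, p = 0.066), and *Fdx1* had r = 0.15 with *Fdxr* (exact permutation p = 0.74, rho = 0.071, p = 0.91). *Cyp11a1* had r = 0.67 with *Cyp17a1* (exact permutation p = 0.0488, rho = 0.82, p = 0.034), but 0.085 without the 2 farthest libraries. *Star* had r = 0.29 with *Cyp11a1* (exact permutation p = 0.51, rho = 0.43, p = 0.35), and *Cyp17a1* had r = -0.24 with *Hsd17b3* (exact permutation p = 0.63, rho = -0.39, p = 0.40). Over all 45 pairs, 14 changed sign without the 2 farthest libraries. Of the libraries, cKO/Y replicate 1 was lowest in *Star*, *Cyp11a1*, *Cyp17a1*, *Hsd3b6* and *Fdx1* and highest in *Hsd3b1* and *Hsd17b3*, and cKO/Y replicate 3 was highest in *Cyp11a1*, *Cyp17a1*, *Fdx1*, *Fdxr* and *Scarb1*.

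**Figure D5:**
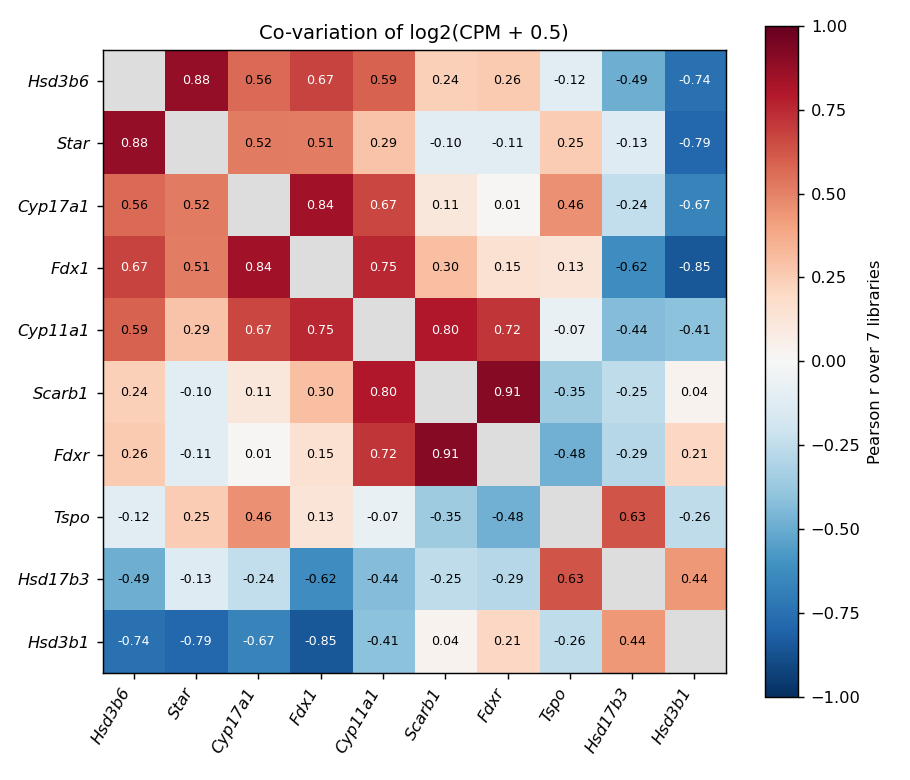
Pearson r over 7 libraries for each of the 45 pairs of the 10 genes (colour and number, red positive and blue negative), with genes ordered for display. *Hsd3b1* is negative with *Star*, *Cyp17a1*, *Fdx1*, *Hsd3b6* and *Cyp11a1*, which are positive among themselves, and no pair passed the adjustment over the 45 pairs. The library cKO/Y replicate 1 was lowest in all of these positively related genes. Without it, r among them ranged from -0.015 (*Star* with *Cyp11a1*) to 0.84 (*Star* with *Hsd3b6*).

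The rest of the pathway was described from 3 lists. Of 18 genes of cholesterol supply and import, 16 were tested, and 0 were called and 0 had an unadjusted p under 0.05 (median log2 fold change 0.0084). The smallest p values were those of *Vdac1*, a channel of the outer mitochondrial membrane (log2 fold change 0.27), *Stard5*, a cholesterol-binding protein (0.39), and *Dbi*, a ligand of TSPO (-0.21). The groups of *Vdac1* did not overlap (12.1 to 14.3 CPM in fl/Y and 14.4 to 18.3 CPM in cKO/Y), as was so in this direction for 1.34% of all genes tested. Of 33 other steroid-converting enzymes and electron donors, 18 were tested and 0 called, with a median of 0.010. Of 20 receptors, signalling proteins and transcription factors, 15 were tested, 0 were called and 0 had an unadjusted p under 0.05 (median 0.036), with the smallest p for *Pde8a*, a phosphodiesterase that degrades cyclic AMP (log2 fold change 0.15).

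Among the enzymes, *Sult1e1*, the estrogen sulfotransferase of Leydig cells, was 19.1, 13.1 and 11.7 CPM in fl/Y and 6.82, 10.2, 6.93 and 4.72 CPM in cKO/Y. The groups did not overlap, as was so in this direction for 1.59% of all genes tested. The log2 fold change was -0.92 (SE 0.24, unadjusted p = 0.0016 and adjusted p = 1.00 by limma), with -0.97 within batch 1 and -0.89 within batch 2. *Hsd17b10* and *Cyb5a*, next by p, had log2 fold changes of -0.47 and -0.20. The groups of *Hsd17b10* did not overlap either (4.24 to 7.47 CPM in fl/Y and 3.31 to 4.09 CPM in cKO/Y).

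Other Leydig cell markers were set beside the members. Of 13 markers, 12 were listed and 0 called (median log2 fold change 0.017), with a summed level of 589 to 726 CPM in fl/Y and 605 to 849 CPM in cKO/Y. *Lhcgr*, the receptor of luteinizing hormone, was 5.58, 8.48 and 9.55 CPM in fl/Y and 11.5, 5.38, 11.7 and 4.62 CPM in cKO/Y. *Nr5a1* was 23.6, 26.3 and 17.5 CPM in fl/Y and 27.3, 13.8, 37.5 and 26.2 CPM in cKO/Y, and both genes overlapped between the groups. *Insl3*, a peptide hormone of Leydig cells, differed most by batch, with 51.5 to 119 CPM in batch 1 and 1.12 to 6.26 CPM in batch 2. Its log2 difference between the batches was 4.01 (SE 0.38, adjusted p = 6.3e-05, limma). Its log2 fold change of cKO/Y against fl/Y, fitted with batch, was 0.69 (SE 0.38, unadjusted p = 0.088, limma). It was 0.73 within batch 1 and 0.66 within batch 2, and the groups overlapped. Of all genes, 7.06% were called for the batch term, and of the 10 members 0, with the smallest adjusted p of 0.149 for *Hsd3b6* (log2 difference 0.88) and for *Scarb1* (0.37).

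The mean centred log2 profile of the 6 Leydig cell genes had r = 0.50 with that of the other Leydig cell markers (exact permutation p = 0.26, rho = 0.14, p = 0.78), and -0.056 without the 2 farthest libraries. It was 0.096 without cKO/Y replicate 3, 0.79 without fl/Y replicate 1 (exact permutation p = 0.065) and 0.77 with CPM from total reads (exact permutation p = 0.051, adjusted p = 0.188). *Hsd3b6* weighed most in this profile: in cKO/Y replicate 1 the profile was -0.32 on the log2 scale, and without *Hsd3b6* it was 0.011. Of 10 such relations, with lists of 9 cell types and with sequencing depth, none passed the adjustment (smallest adjusted p = 0.756). The list with the highest r was that of macrophages, which lie beside Leydig cells (r = 0.56, exact permutation p = 0.19, rho = 0.46, p = 0.30, and 0.74 without the 2 farthest). The summed level of 9 macrophage markers was 80.9 to 110 CPM in fl/Y and 82.9 to 105 CPM in cKO/Y, and that of 7 spermatocyte markers was 785 to 1126 CPM in batch 1 and 1539 to 2064 CPM in batch 2. Sertoli cell markers summed to 385 to 636 CPM in fl/Y and 397 to 696 CPM in cKO/Y, and 2 of 5 adrenal and fetal Leydig cell markers were listed, at 2.19 to 4.51 CPM in sum. Summed levels, here and for the Leydig cell markers above, are weighted towards the most abundant genes of each list. The part of these cell types in the members' values was not tested.

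Among 11987 other genes with a mean of at least 5 CPM, those with a profile most like that of the 6 Leydig cell genes over the 7 libraries were *Cnot8* (r = 0.99), *1110002L01Rik* (r = 0.99), *2200002J24Rik* (r = 0.97), *Gm8276* (r = 0.96) and *Ccdc25* (r = 0.96). These are the highest of many correlations over 7 libraries and are given as a description. With *Hsd3b6* left out of the profile, their r was 0.56 to 0.69. *Cnot8* itself varied little, from 14.3 to 15.4 CPM.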

How the data were processed

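Whole testis RNA of 3 fl/Y and 4 cKO/Y samples was sequenced as paired 35-base reads. The methods name TopHat and HTSeq, while the submitters' processing notes name HISAT2 2.1.0, featureCounts and edgeR on GRCm38. The deposited signal values are CPM per the name of the table, computed by the authors. In all 7 columns 100% of values were whole multiples of 1 read to within 0.001 read, and the library scaling equalled TMM factors. All listed genes had over 1 CPM from total reads in at least 3 libraries.

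Genes over 1 deposited CPM in at least 3 libraries (19400) were fitted with limma (version 3.58.1, R 4.3.3) after transformation to log2(CPM + 0.5), with a variance trend and the labels' batch, two-sided, and Benjamini-Hochberg adjustment at 0.05. edgeR 4.0.16 and DESeq2 1.42.0 were run on the recovered reads as 2 of 20 alternatives. The test was checked on simulated data. Intervals of single values are exact Poisson intervals and cover counting error only. The paper describes biological replicates, and neither it nor the labels say that each sample is a separate animal. The p-values measure the spread between these samples. Exact permutation tests went through all pairings of the libraries in NumPy 2.4.6, with ranks from SciPy 1.17.1.

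The members and lists were chosen with earlier results of these data known. Named genes are the members, *Rlim*, up to 3 genes with the smallest p of each pathway or marker list, *Insl3*, *Lhcgr*, *Nr5a1*, the 5 genes most like the Leydig cell profile, and genes sharing 35-base words with a member. *Prm1* and the genes given for a library that stands apart were named after their values were seen.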

Additional observations from a re-analysis of the deposited data

Results flagged for a closer look

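In the 4 cKO/Y libraries, the highest or lowest value was far from the other 3 by Dixon's test for 11 of 124 quantities (the 10 members, 111 genes of the lists, *Rlim*, and the ratio and the sum of *Hsd3b6* and *Hsd3b1*), where 6.2 would be expected at 1 in 20. Among the members this was *Hsd17b3*, at 21.4 CPM in cKO/Y replicate 1 and 11.8 to 13.2 CPM in the others. The same library stood apart in *Stard6* (198.5 CPM, lowest). In cKO/Y replicate 2 the values that stood apart were *Stard3* (5.182 CPM, lowest), *Cdh5* (2.392 CPM, lowest), *Hsd17b7* (8.97 CPM, highest) and *Creb1* (42.66 CPM, highest). In cKO/Y replicate 3 they were *Npc1* (9.762 CPM), *Oaz3* (671.1 CPM) and *Plin1* (4.094 CPM), all highest. In cKO/Y replicate 4 they were *Hsd17b11* (4.517 CPM, lowest) and *Gata6* (8.833 CPM, highest). The 3 fl/Y libraries were not tested in this way.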

How the results depend on the processing

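No member was called under any of 20 alternatives, and *Star*, *Hsd3b1* and *Hsd3b6* had the same sign in all of them, with *Hsd3b1* between 0.017 and 0.34. The log2 fold change of *Hsd3b6* ranged from -1.77 to -0.52 (unadjusted p 2.2e-04 to 0.055) and that of *Star* from -0.42 to -0.22 (unadjusted p 0.025 to 0.23). Within batch 2 alone the sign turned for *Cyp11a1* (-0.14), *Cyp17a1* (-0.078), *Fdx1* (-0.11), *Fdxr* (-0.29) and *Scarb1* (-0.012), within batch 1 alone for *Hsd17b3* (-0.19), and with no batch term for *Hsd17b3* (-0.032). The cause was not tested. With 1 library left out at a time, log2 fold changes ranged from -0.14 to 0.14 for *Cyp11a1*, -0.078 to 0.26 for *Cyp17a1*, -0.20 to 0.16 for *Hsd17b3*, -0.19 to 0.39 for *Fdx1*, -0.29 to 0.20 for *Fdxr*, -0.012 to 0.14 for *Scarb1* and -0.14 to 0.34 for *Tspo*. A filter of 5 CPM left out *Tspo*.

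The 1 gene called over all genes became 0 with no batch term, with the replicate block, with no variance trend and in batch 2 alone, 28 in batch 1 alone (a single fl/Y library, assumed to vary like the cKO/Y libraries), and 0 to 3 with 1 library left out. Genes called for the interaction numbered 2, with 1 at a pseudocount of 0.1 CPM, 1 with a filter of 5 CPM, 5 with CPM from total reads, 0 with no variance trend, and 1 to 3 with 1 library left out. These interaction alternatives were chosen after seeing the data. The replicate numbers gave no clear pairing. Same-numbered libraries correlated in their deviations at 0.10, 0.066 and 0.39, and cKO/Y replicate 2 correlated best with fl/Y replicate 1 (0.47). All pairs from different batches were negative (-0.49 to -0.067), so these values follow the batch and cannot show whether samples were paired. The paper compared littermates, and which samples were littermates is not given. With the replicate number as a block, which leaves cKO/Y replicate 4 without a partner, *Hsd3b6* was -1.17 and *Star* -0.31, and 0 genes were called.

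The median r over all 45 pairs was 0.42 with CPM from total reads and -0.063 to 0.19 with 1 library left out. Among the 6 Leydig cell genes it was -0.45 to 0.32 with 1 library left out. Among the 4 broadly expressed members it was 0.14, and 0.43 with CPM from total reads, -0.16 with batch means subtracted, -0.20 with batch and genotype subtracted and -0.31 to 0.28 with 1 library left out. Between both sets it was 0.16, and 0.44, 0.24, 0.24 and -0.015 to 0.20 under the same alternatives. The relation of the Leydig cell genes to the other Leydig cell markers was 0.096 to 0.79 with 1 library left out and 0.55 with *Hsd3b6* left out of the profile, which was added after seeing the data. The order per kilobase changed for 7 members with the longest transcript. Depth limits *Tspo* most, with 11 to 31 reads per library.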
